A study of Mus musculus with 12 samples.

Results

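The 9 genes described here, of 55471 gene IDs in the count table, are outputs and accessory factors of the circadian clock, chosen by name: the PAR bZIP factors Dbp, Tef and Hlf, their repressing relative Nfil3, the DEC repressors Bhlhe40 and Bhlhe41, and the rhythmic genes Ciart, Usp2 and Lonrf3. Each of the 9 passed the filter on low counts and stood among the 13866 genes tested. Polyadenylated RNA was sequenced from livers of C57BL/6 mice in 4 groups of 3 samples. The SD group ate a standard diet, and the MASLD group ate a diet that gives metabolic dysfunction-associated steatotic liver disease, in which fat builds up in the liver. The 0.1x and 1x groups ate the same MASLD diet and received Aza-TdC at relative doses of 0.1 and 1. Aza-TdC is a nucleoside analogue that is built into DNA and depletes DNMT1, the methyltransferase that keeps up DNA methylation when cells divide. All 12 samples thus share strain and tissue, and all but the SD group share the MASLD diet. The labels used here state no absolute dose, no vehicle for the untreated groups, no sex, age or length of feeding, and no time of day of tissue collection. Nor do they tie each sample to its own animal, so every p-value rests on a spread between samples that may in part be technical.

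In the liver clock, the factors CLOCK and BMAL1 (gene symbol Arntl) bind E-boxes and switch on rhythmic genes, among them the period genes and Dbp. DBP, TEF and HLF bind D-boxes and activate genes of detoxification and lipid metabolism, while NFIL3 binds the same sites, represses them and peaks at the opposite time of day. BHLHE40 and BHLHE41 compete with CLOCK and BMAL1 at E-boxes, and CIART represses them at the same sites. REV-ERB alpha (Nr1d1) represses genes with ROR elements, Nfil3 and Arntl among them. The levels of these genes depend on the hour of day, no hour is labelled, and its part in the comparisons below was not tested.

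Promoter windows of 300 bases, running from 250 before to 50 after the annotated start, were taken from RefSeq (build GRCm38.p6) and matched 8 of the 9 genes. Those of 5 genes are shown: 4 hold a motif named above, and Dbp, the usual readout of E-box activity, holds none of those searched in this window. Capitals mark the E-box CACGTG in Ciart, Lonrf3 and Bhlhe41, and in Nfil3 the reverse complement of TAGGTCA, the core of the ROR element.
Ciart, chr3:95882179-95882478, minus strand: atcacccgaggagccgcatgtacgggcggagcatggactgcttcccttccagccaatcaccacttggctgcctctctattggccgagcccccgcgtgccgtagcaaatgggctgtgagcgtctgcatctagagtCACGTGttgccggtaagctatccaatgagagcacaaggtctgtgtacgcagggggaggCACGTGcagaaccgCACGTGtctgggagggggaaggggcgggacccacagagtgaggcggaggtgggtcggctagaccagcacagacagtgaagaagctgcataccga
Lonrf3, chrX:36328159-36328458, plus strand: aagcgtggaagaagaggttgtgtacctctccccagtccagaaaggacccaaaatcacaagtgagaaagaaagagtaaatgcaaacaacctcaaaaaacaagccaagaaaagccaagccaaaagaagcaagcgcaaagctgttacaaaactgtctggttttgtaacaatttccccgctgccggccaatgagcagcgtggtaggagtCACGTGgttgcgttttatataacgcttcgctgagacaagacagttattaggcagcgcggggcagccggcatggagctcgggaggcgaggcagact
Bhlhe41, chr6:145865371-145865670, minus strand: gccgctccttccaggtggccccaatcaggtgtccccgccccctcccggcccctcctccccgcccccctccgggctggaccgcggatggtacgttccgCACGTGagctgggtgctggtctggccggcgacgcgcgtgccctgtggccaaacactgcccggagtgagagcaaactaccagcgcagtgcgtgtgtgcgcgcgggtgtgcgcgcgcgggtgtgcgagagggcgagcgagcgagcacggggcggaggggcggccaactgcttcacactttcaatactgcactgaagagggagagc
Nfil3, chr13:52980990-52981289, minus strand: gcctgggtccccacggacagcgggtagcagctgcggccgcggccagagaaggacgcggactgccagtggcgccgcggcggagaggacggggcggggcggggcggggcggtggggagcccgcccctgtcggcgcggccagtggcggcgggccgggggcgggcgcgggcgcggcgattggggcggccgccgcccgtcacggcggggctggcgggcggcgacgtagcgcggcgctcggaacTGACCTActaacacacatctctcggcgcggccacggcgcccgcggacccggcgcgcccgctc
Dbp, chr7:45704997-45705296, plus strand: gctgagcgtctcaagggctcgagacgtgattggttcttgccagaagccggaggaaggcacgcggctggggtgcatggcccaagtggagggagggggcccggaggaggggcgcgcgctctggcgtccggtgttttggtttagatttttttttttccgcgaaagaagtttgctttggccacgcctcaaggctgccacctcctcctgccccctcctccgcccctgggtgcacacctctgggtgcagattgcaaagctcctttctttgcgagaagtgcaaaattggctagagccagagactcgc
Ciart held 3 E-boxes, which start 116, 58 and 44 bases before the annotated start, Lonrf3 held 1 at 45 bases before it and Bhlhe41 held 1 at 153 bases before it. Tef has 2 annotated windows with 1 E-box each. The E-box stood in 7.15% of all 32851 promoter windows of this length, searched on both strands, as were all motifs below. The Nfil3 match to the ROR core began 12 bases before the start, and that core stood in 2.61% of windows. Hlf held the full cAMP response element TGACGTCA 9 bases before its start (1.79% of windows), and Usp2 held the shorter site TGACGT, which overlaps the full element where that is present, 4 bases before its start (7.51%). The E-prime box CACGTT (4.68%) and the D-boxes TTACGTAA (0.12%) and TTATGTAA (0.94%) were in none of the 9 windows. No match says only that these letters are not in this window. Each of the 9 windows held more CpG sites than the median of 7 over all windows. Nfil3 held 54, Usp2 33, Bhlhe41 32, Hlf 30, Ciart 19, Dbp 18 and Lonrf3 14, and the 2 Tef windows held 25 and 9.

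The libraries held 30213048 to 41852606 counts each, and no 2 replicate libraries agreed within counting noise. The unit of level is CPM (a gene's counts over the library's TMM-scaled total), with the standard deviation (SD) over 3 samples. Scaling matters for the diet: TMM factors were 0.852 to 0.866 in the SD libraries and 0.960 to 1.15 in the others. Scaled by library size alone, the median of all genes shifted by 0.36 on the log2 scale between MASLD and SD. All 7 hepatocyte markers fell on the MASLD diet, and their summed level went from 172910 to 180300 CPM in SD to 84578 to 106710 in MASLD. Of 9 Kupffer cell and macrophage markers, 7 rose on the diet, with summed levels of 129 to 195 CPM on the standard diet (SD) and 258 to 392 on the MASLD diet. The treated groups held 312 to 363 (0.1x) and 137 to 263 CPM (1x). Of the stellate cell markers 5 of 6, and of the sinusoidal endothelial markers 4 of 6, also rose on the diet. Over all genes tested, 15.6% rose and 13.9% fell. Of 5 cholangiocyte markers 3 rose on the diet and none fell, with a median log2 fold change of 1.94 and summed levels of 12.4 to 23.7 CPM in SD and 39.5 to 149 in MASLD, and 1 fell at 1x against MASLD. No defining marker of these 5 cell types was at 0 in any library. Monocyte, T and NK cell and B cell markers were scarce, with summed levels of 0.954 to 7.53 CPM. On the diet 1 of 5 monocyte markers rose and 0 fell, and 1 of 7 tested T and NK cell markers fell and 0 rose. None of 4 B cell markers passed. Their median log2 fold changes were 0.97, −0.83 and −1.46. The part of these shifts in the results below was not tested, and fewer cells of a type and less RNA per cell cannot be told apart.

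Per kilobase of exon, in SD livers, Dbp stood highest at 61.8 ± 1.10 (SD, n = 3) CPM per kb, followed by Bhlhe40 at 31.5 ± 4.48 and Tef at 21.8 ± 5.65. Usp2, Ciart, Hlf and Nfil3 followed at 11.9, 9.51, 8.33 and 7.90 CPM per kb, and each differed from its neighbour in this order by less than the larger of their SDs. Bhlhe41 (0.977) and Lonrf3 (0.347) were the lowest, so the liver held far more mRNA of the DEC repressor Bhlhe40 than of Bhlhe41. Dbp was also among the steadier genes between replicates, with a within-group SD of 0.13 on the log2 scale, at the 15.7th percentile of all genes tested. Bhlhe41 varied most among the 9, with 0.54 at the 86.1th percentile.

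**Figure D1:**
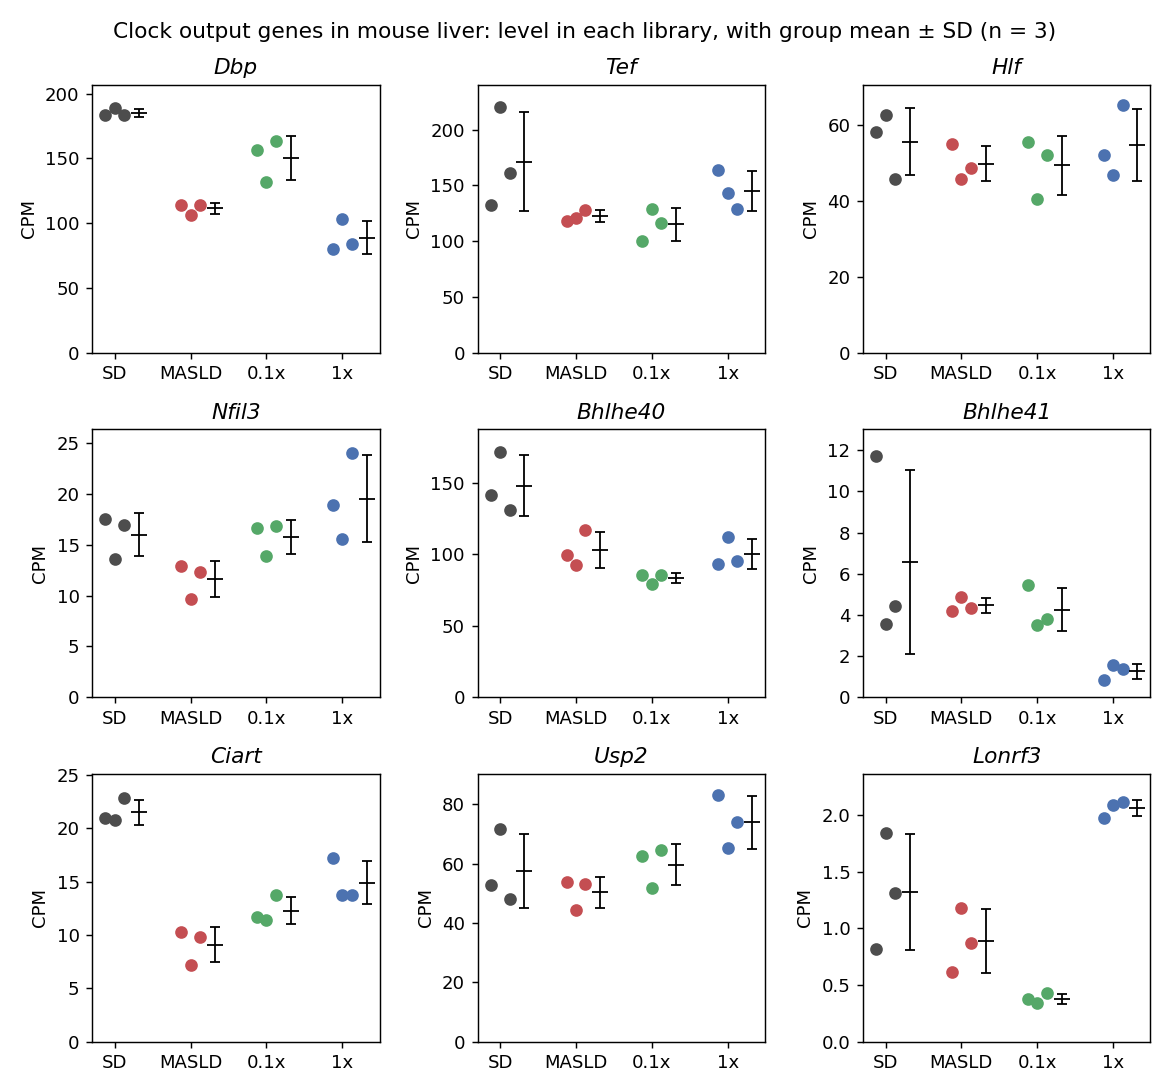
Level of each of the 9 genes in CPM (y axis, from 0) in each library (points) of the 4 groups (x axis), with the group mean ± SD (n = 3) beside them. Dbp and Ciart in SD stood above every other library, and Bhlhe41 at 1x and Lonrf3 at 0.1x stood below every other library.

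Over the 4 groups together, 8 of the 9 genes differed by the edgeR quasi-likelihood F test, against 38.4% of all genes tested, and Hlf was the exception (adjusted p = 0.655). The adjusted p was lowest for Dbp (6.47e-05) and Ciart (0.000164). It was highest among the 8 for Tef (0.0350) and Usp2 (0.0463). These last were the less firm calls: the Tef call was lost without any one of SD samples 4 and 5, MASLD samples 3, 4 and 5 and 0.1x samples 1 and 4 (0.0521 to 0.108), and that of Usp2 without any one of 8 of the 12 libraries (0.0522 to 0.168). Those 8 were SD sample 3, MASLD samples 3, 4 and 5, 0.1x samples 1 and 4, and 1x samples 2 and 5. The Nfil3 call (0.0192) was lost without MASLD sample 4 or 1x sample 5 (0.0513 to 0.0800).

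The first comparison asks what the MASLD diet does. Of the 9 genes 4 fell (Dbp, Tef, Bhlhe40 and Ciart) and none rose, where 13.9% of all genes fell, 15.6% rose and 29.5% changed either way. Of all calls 53.0% were higher, and 89.0% when libraries were scaled by size alone, under which the count for the 9 genes was 2 (Dbp and Ciart). At an unadjusted p under 0.05, 5 were lower and 0 higher, and DESeq2 called 5 lower and 0 higher, Nfil3 being the added gene in both cases. The median log2 fold change of the 9 was −0.52, beside 0.03 over all genes tested. The median size of the change was 0.52, beside 0.36 over all genes. The samples of the groups did not overlap for 5 of the 9 genes, against 47.9% of all genes.

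Aza-TdC at 0.1x and at 1x was compared with the MASLD group, and the doses with each other. Of the 9 genes, 2 changed at 0.1x (Dbp higher, Lonrf3 lower), where 13.2% of all genes changed (6.08% higher and 7.09% lower). At 1x, 3 changed (Nfil3 and Ciart higher, Bhlhe41 lower), where 3.11% of all genes did (1.49% higher and 1.62% lower). The median size of the log2 fold change of the 9 at 1x was 0.56, beside 0.19 over all genes tested, and at 0.1x it was 0.31 beside 0.29. Between the doses, 3 genes differed (Lonrf3 higher at 1x, Dbp and Bhlhe41 lower), where 13.0% of all genes did (7.13% higher and 5.86% lower). The counts against MASLD rested on few libraries. At 0.1x the count of the 9 was 0 without any one of MASLD samples 4 and 5 or 0.1x samples 1 and 4, and 1 without MASLD sample 3 or 0.1x sample 3, while the count over all genes went from 1826 to as low as 382 (without MASLD sample 4). At 1x, without MASLD sample 4 or 1x sample 2 the count was 0, and without MASLD sample 3 or 1x sample 5 it was 1, while the count over all genes went from 431 to as low as 83 (without MASLD sample 4). Between the doses that over all genes went from 1802 to as low as 210 (without 1x sample 2). Against SD, 4 of the 9 fell at 0.1x (Tef, Bhlhe40, Ciart and Lonrf3, where 10.9% of all genes fell, 9.85% rose and 20.7% changed) and 4 at 1x (Dbp, Bhlhe40, Bhlhe41 and Ciart, where 9.84% of all genes fell, 9.91% rose and 19.8% changed), and none rose in either. At an unadjusted p under 0.05, 0 and 1 were higher, and DESeq2 called 0 higher in both. Samples of the groups did not overlap for 5 of the 9 genes at 0.1x against MASLD (35.5% of all genes), 7 at 1x against MASLD (27.8%), 5 between the doses (30.8%), 5 for 0.1x against SD (31.9%) and 5 for 1x against SD (37.2%). The comparisons with the MASLD group share its 3 libraries, as those with SD share theirs, so their results are not independent.

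**Figure D2:**
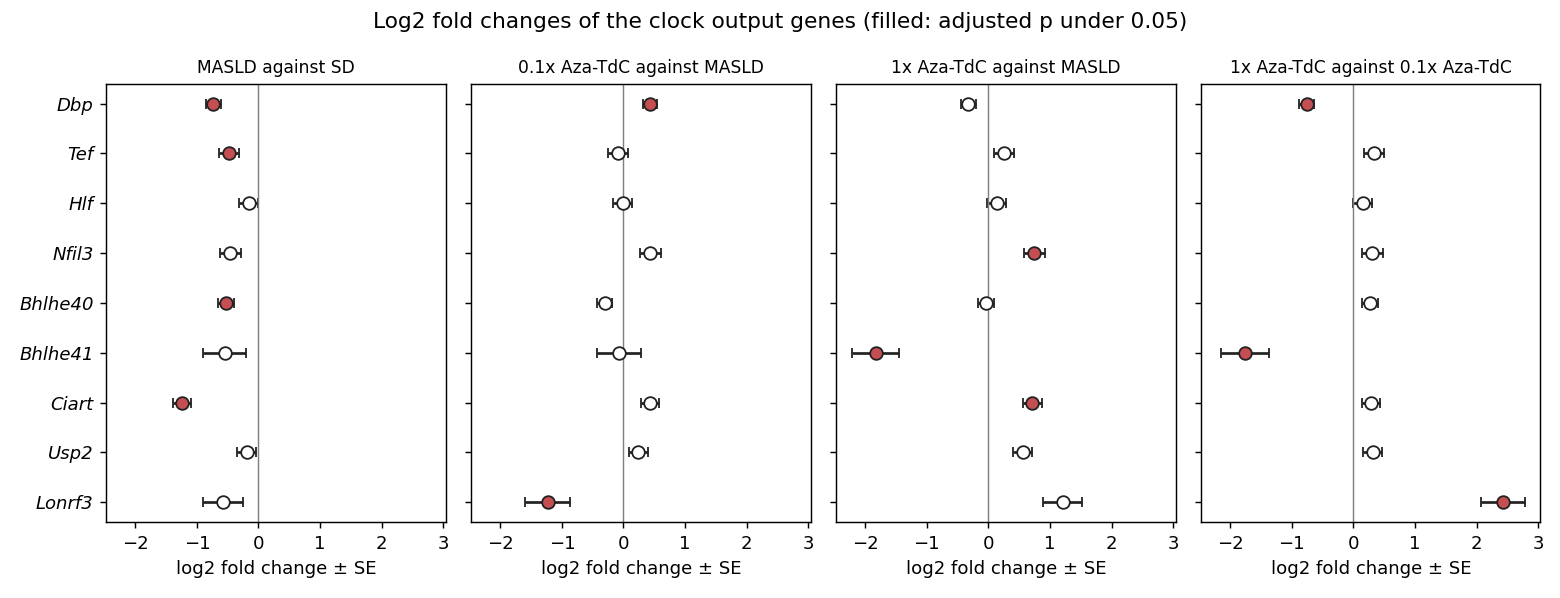
Log2 fold change ± SE (x axis) of the 9 genes (y axis) in 4 comparisons (panels), with filled points where the adjusted p was under 0.05. On the diet the filled points all lie left of 0, and between the doses Lonrf3 lies at 2.43 and Bhlhe41 at −1.76.

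Dbp encodes the PAR bZIP activator with the widest daily swing in liver and is the usual readout of E-box activity. Its gene lies on chromosome 7 (45705088 to 45710203, plus strand, mm10). The SD libraries held 183, 189 and 183 CPM, the MASLD libraries 114, 106 and 114, the 0.1x libraries 156, 131 and 164, and the 1x libraries 79.9, 103 and 83.8. All 4 groups were apart from each other, in the order SD, 0.1x, MASLD and 1x, with no sample of one group inside the range of another. Dbp fell on the MASLD diet, with a log2 fold change of −0.73 ± 0.12 (SE, n = 3 per group, adjusted p = 0.000368), or 0.602 times the SD level. That call held with each library left out (adjusted p up to 0.00322) and when libraries were scaled by size alone.

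The 2 doses lay on opposite sides of the MASLD level of Dbp. At 0.1x it rose by 0.43 ± 0.12 on the log2 scale (adjusted p = 0.0290), and at 1x it lay at −0.33 ± 0.12 (adjusted p = 0.160, 95% interval −0.58 to −0.08). The direct test between the doses gave −0.76 ± 0.12 (adjusted p = 0.00417), a level at 1x of 0.591 times that at 0.1x, and it held with each library left out (adjusted p up to 0.0299). The rise at 0.1x was less firm: it was lost without any one of MASLD samples 3, 4 and 5 or 0.1x samples 1 and 4 (adjusted p 0.0714 to 0.105), and when each library's trend with transcript length and GC content was removed (0.0640) or libraries were scaled by size alone (0.0678). Against SD, Dbp fell at 1x by 1.06 on the log2 scale (adjusted p = 3.58e-05), and at 0.1x it lay at −0.30 ± 0.12 (adjusted p = 0.0870).

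Dbp shares 539 exon bases with Sphk2, a sphingosine kinase gene on the other strand with 669 to 1673 counts per library, and without the strand setting of the counting their reads cannot be told apart there. The log2 fold change of Sphk2 between the doses was 0.47 ± 0.14 (adjusted p = 0.0374), opposite in sign to that of Dbp. On the MASLD diet Sphk2 lay at −0.36 ± 0.14 (adjusted p = 0.0595). Genes opposite Tef, Bhlhe40, Bhlhe41 and Usp2 held at most 4 counts per library.

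Tef and Hlf encode the other PAR bZIP activators. Tef stood at 133, 220 and 161 CPM in SD and at 118, 121 and 128 in MASLD, at 99.9, 129 and 116 at 0.1x and at 164, 143 and 129 at 1x. Every SD sample lay above every MASLD sample, though the SD samples spread over a wider range than all the others together. Tef fell on the MASLD diet by 0.48 on the log2 scale (SE 0.16, adjusted p = 0.0353). That call was lost without any one of SD samples 4 and 5 or MASLD samples 3, 4 and 5 (adjusted p 0.0571 to 0.200), with the log2 fold change at −0.27 without SD sample 4. It was also lost when libraries were scaled by size alone (0.587).

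At neither dose did Tef pass the test against MASLD (log2 fold changes −0.09 ± 0.16 and 0.25 ± 0.16). Against SD, Tef fell at 0.1x by 0.58 (SE 0.16, adjusted p = 0.0211), a call that was lost without SD sample 4 or 0.1x sample 1 (0.0818 to 0.125), once the GC and length trend was removed (0.0520), in the fit of only these groups (0.0706) and when libraries were scaled by size alone (0.169). At 1x it lay at −0.24 ± 0.16 against SD (adjusted p = 0.327). Hlf was the flattest of the 9. Its libraries ran from 45.8 to 62.8 CPM in SD and 45.9 to 54.9 in MASLD, from 40.6 to 55.5 at 0.1x and from 46.9 to 65.2 at 1x, and every pair of groups overlapped. Its log2 fold changes lay between −0.17 and 0.15 over the 6 comparisons, and the 95% interval for the diet ran from −0.49 to 0.17.

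The 3 activators thus differed from each other in how they moved, and the mix among them can be given within each library, where scaling drops out. Dbp made up 67.5 ± 4.09% (SD, n = 3) of the summed PAR bZIP mRNA per kilobase in SD and 61.8 ± 0.293% in MASLD. With Aza-TdC its share was 69.4 ± 2.85% at 0.1x and 52.6 ± 4.82% at 1x. By library, the 1x samples stood at 48.2, 57.7 and 51.7%, below all 9 others, of which the lowest was 61.6%. The 0.1x samples (71.3, 66.2 and 70.8%) lay above all MASLD samples.

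Nfil3 encodes the repressor that competes with these activators at D-boxes and also acts in immune cells. It stood at 17.5, 13.6 and 16.9 CPM in SD, at 13.0, 9.67 and 12.3 in MASLD, at 16.6, 13.9 and 16.8 at 0.1x and at 18.9, 15.6 and 24.1 at 1x. The MASLD samples lay below all samples of the other groups, and the others overlapped each other. Nfil3 rose at 1x against MASLD by 0.74 on the log2 scale (SE 0.17, adjusted p = 0.0286). The call was lost without any one of MASLD samples 3, 4 and 5 or 1x samples 2 and 5 (0.0505 to 0.170).

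For the diet the log2 fold change of Nfil3 was −0.46 ± 0.17 (adjusted p = 0.0535), and for 0.1x against MASLD it was 0.44 ± 0.17 (adjusted p = 0.0960). DESeq2 and RLE scaling put the diet difference past the threshold (0.0318 and 0.0442). Between the doses Nfil3 did not pass the test (0.31 ± 0.17, adjusted p = 0.231). Of the 9 Kupffer cell and macrophage markers, 5 were lower at 1x than at 0.1x and 0 higher, where 5.86% of all genes were lower. At 1x against MASLD 1 of these markers was higher and 2 were lower, where 1.49% of all genes were higher and 1.62% lower. The part of these or other immune cells in the level of Nfil3 was not tested.

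Activators and repressor can be set against each other within a library. The summed PAR bZIP mRNA per kilobase was 11.9 ± 2.71 times (SD, n = 3) that of Nfil3 in SD and 10.6 ± 1.32 times in MASLD. At 0.1x it was 9.32 ± 0.385 times, and 6.08 ± 1.61 times at 1x. The 1x libraries, at 5.94, 7.76 and 4.55, lay below the 9 others, of which the lowest was 8.93. This ratio was described after its parts were known and was not tested.

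**Figure D3:**
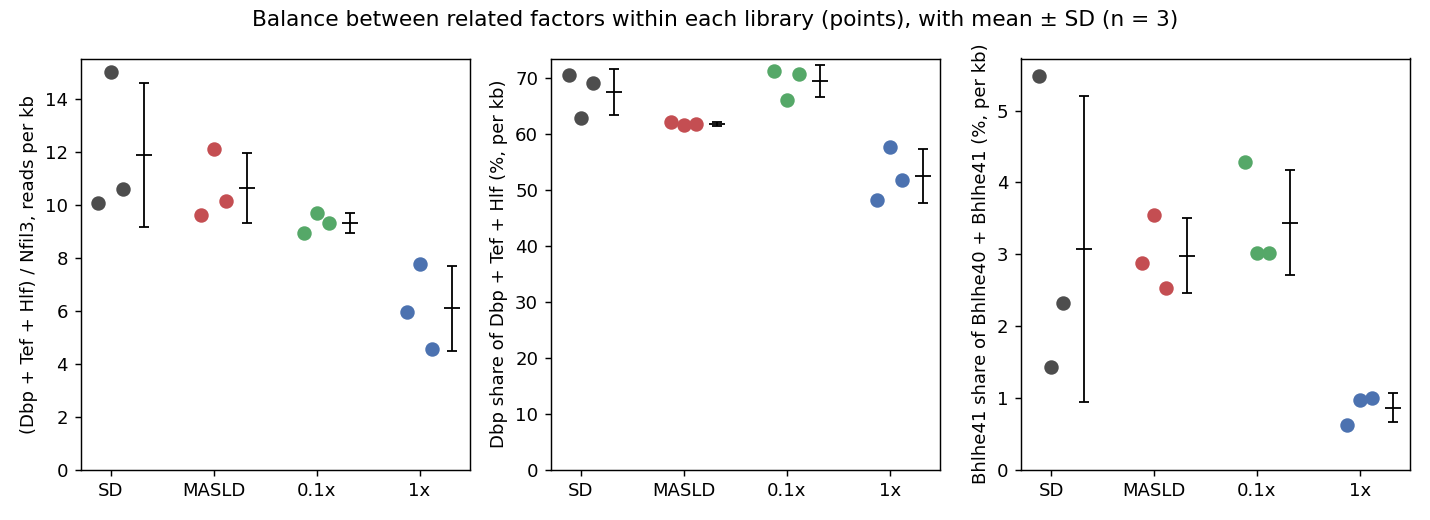
Ratios within each library (points, group mean ± SD beside them, n = 3, axes from 0): summed PAR bZIP over Nfil3, the share of Dbp among PAR bZIP mRNA and the share of Bhlhe41 among DEC mRNA, all per kilobase. In all 3 panels the 1x libraries lie below those of the other groups.

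Bhlhe40, also called Dec1, is a repressor that many stimuli induce in liver and immune cells. It stood at 141, 172 and 131 CPM in SD, at 99.3, 92.8 and 117 in MASLD, at 85.2, 79.2 and 85.3 at 0.1x and at 93.2, 112 and 95.1 at 1x. Each SD sample lay above each sample of the MASLD diet, treated or not, and the 0.1x samples were the lowest. Bhlhe40 fell on the diet by 0.52 on the log2 scale (SE 0.13, adjusted p = 0.00663), and the call held with each library left out (up to 0.0399). It was lost when libraries were scaled by size alone (0.276). Against SD it also fell at 0.1x by 0.83 (SE 0.13, adjusted p = 0.000426) and at 1x by 0.56 (SE 0.13, adjusted p = 0.00634), the latter lost when libraries were scaled by size alone (0.109). Against MASLD the log2 fold changes were −0.31 ± 0.13 at 0.1x (adjusted p = 0.116) and −0.04 ± 0.13 at 1x (adjusted p = 0.927, 95% interval −0.31 to 0.23).

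Bhlhe41, also called Dec2, is its close relative. Its libraries held 11.7, 3.55 and 4.45 CPM in SD and 4.20, 4.87 and 4.32 in MASLD, then 5.45, 3.51 and 3.80 at 0.1x but 0.841, 1.56 and 1.37 at 1x. The 1x samples lay below every other sample, and SD sample 3 stood alone above the rest. The lowest of them still held 40 counts. Bhlhe41 fell at 1x against MASLD by 1.83 on the log2 scale (SE 0.39, adjusted p = 0.0212), to 0.281 times the MASLD level.

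Between the doses it fell at 1x by 1.76 (SE 0.39, adjusted p = 0.0136), and against SD it fell by 2.38 (SE 0.39, adjusted p = 0.000684). The call against MASLD was lost without any one of MASLD samples 3 and 4 or 1x samples 2, 4 and 5 (0.0516 to 0.0990), with log2 fold changes of −2.01 to −1.60, and the call between the doses was lost without 1x sample 2 (0.0816). The call against SD held with each library left out, and was −1.67 without SD sample 3. For the diet the log2 fold change was −0.55 ± 0.35 (adjusted p = 0.261), and without SD sample 3 it was 0.15. As a share of DEC mRNA per kilobase, Bhlhe41 made up 3.08 ± 2.13% in SD and 2.98 ± 0.521% in MASLD. At 0.1x it made up 3.44 ± 0.735%, and 0.864 ± 0.206% at 1x. Bhlhe40 did not move with Bhlhe41 at 1x, where its log2 fold change against MASLD was close to 0.

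Ciart, also called Chrono, encodes a repressor of CLOCK and BMAL1, and its promoter window held the 3 E-boxes shown above. It stood at 20.9, 20.7 and 22.8 CPM in SD, at 10.2, 7.21 and 9.83 in MASLD, at 11.7, 11.4 and 13.7 at 0.1x and at 17.2, 13.7 and 13.7 at 1x. SD lay above all other samples and MASLD below all others. Ciart fell on the diet by 1.24 on the log2 scale (SE 0.15, adjusted p = 3.01e-05), to 0.423 times the SD level, the largest fall on the diet among the 9. The call held with each library left out (up to 0.000259) and when libraries were scaled by size alone.

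At 1x Ciart rose against MASLD by 0.71 (SE 0.15, adjusted p = 0.0200), to 1.64 times. That call was lost without MASLD sample 4 or 1x sample 2 (0.0866 to 0.124). At 0.1x the log2 fold change was 0.43 ± 0.15 (adjusted p = 0.0667), and between the doses it was 0.28 ± 0.15 (adjusted p = 0.214). Both treated groups were lower than SD, by 0.81 at 0.1x (SE 0.15, adjusted p = 0.00160) and by 0.53 at 1x (SE 0.15, adjusted p = 0.0193). The latter was lost without any one of SD sample 5 or 1x samples 4 and 5 (0.0740 to 0.0800), once the GC and length trend was removed (0.0508) and when libraries were scaled by size alone (0.299). An antisense gene that overlaps the span of Ciart, C920021L13Rik, held 9 to 58 counts and shares no exon base with it. Dbp and Ciart both fell on the diet, and at 1x Ciart rose against MASLD while Dbp lay at −0.33.

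Usp2 encodes a deubiquitinating enzyme with a strong daily rhythm in liver. It ran from 47.9 to 71.6 CPM in SD and 44.3 to 53.7 in MASLD, from 51.7 to 64.4 at 0.1x and from 65.2 to 83.0 at 1x. Each 1x sample lay above each MASLD and each 0.1x sample, and the other groups overlapped. The log2 fold change at 1x against MASLD was 0.56 ± 0.15 (adjusted p = 0.0638). It passed with DESeq2 (0.0150), in the fit of only these groups (0.0178), with the GC and length trend removed (0.0245) and with no filter (0.00305). In no comparison of 2 groups did Usp2 pass the main test.

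Lonrf3 encodes a protein with a RING finger and a LON domain, and its window held 1 E-box. It was the least abundant of the 9, with 24, 58 and 45 counts in the SD libraries, 22, 46 and 33 in MASLD, 12, 11 and 13 at 0.1x and 94, 87 and 80 at 1x. In CPM the 1x libraries held 1.98, 2.09 and 2.11 and the 0.1x libraries 0.372, 0.339 and 0.426. The 0.1x samples were the lowest and the 1x samples the highest of the 12, and SD and MASLD overlapped in between. Between the doses Lonrf3 was higher at 1x by 2.43 on the log2 scale (SE 0.35, adjusted p = 0.00293, 95% interval 1.68 to 3.19), or 5.40 times. That call held with each library left out (up to 0.0153).

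Set against the MASLD group, Lonrf3 fell by 1.23 under 0.1x (SE 0.37, adjusted p = 0.0408) and lay at 1.21 ± 0.32 under 1x (adjusted p = 0.0531). The call at 0.1x was lost without any one of MASLD samples 4 and 5 or 0.1x samples 1, 3 and 4 (0.0610 to 0.160), in the fit of only these groups (0.0841) and once the GC and length trend was removed (0.0781). The difference at 1x passed with DESeq2 (0.0120) and under 4 other settings. Against SD, Lonrf3 fell at 0.1x by 1.80 (SE 0.36, adjusted p = 0.00311), and this held with each library left out. The counts behind it are small, 11 to 13 per 0.1x library.

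The core clock was looked at alongside, since these genes are its outputs. Of 6 clock genes grouped with Dbp (Per1, Per2, Per3, Nr1d1, Nr1d2 and Cry2), 3 fell on the diet and none rose (3 and 0 at an unadjusted p under 0.05, 2 and 0 with DESeq2). Of all genes, 13.9% fell and 15.6% rose. Those 6 did not run as 1 set over the 12 libraries. Pearson's r of log2 CPM with Dbp ran from −0.681 (Per3) to 0.762 (Nr1d1), a description with no test. Per1, a period repressor, fell by 0.57 on the log2 scale (SE 0.13, adjusted p = 0.00523), with 33.0 to 40.7 CPM in SD and 22.8 to 25.0 in MASLD, and this was lost when libraries were scaled by size alone (0.226). Cry2, a cryptochrome repressor, fell by 0.52 (adjusted p = 0.0203). That was lost without any one of SD samples 3 and 4 or MASLD samples 3 and 4 (0.0540 to 0.0804) and when libraries were scaled by size alone (0.415). Nr1d1 fell by 1.00 (adjusted p = 0.0434), with 178, 53.7 and 84.0 CPM in SD and 43.9, 44.4 and 69.5 in MASLD. The groups overlapped: SD sample 3 stood far above the others, as it did for Bhlhe41, and without it the log2 fold change was −0.39 (adjusted p = 0.315). The Nr1d1 call was also lost without MASLD sample 3 (0.134) or MASLD sample 4, with DESeq2 (0.0686), in the fit of only these groups (0.0558) and when libraries were scaled by size alone (0.125). Per2 and Per3 lay at 0.02 and 0.03 on the log2 scale between the diets. At 0.1x against SD, 2 of the 6 fell and none rose (10.9% and 9.85% of all genes). At 1x against SD, 1 fell (Nr1d1) and 2 rose (9.84% and 9.91% of all genes). Those 2 were Per2 (0.49, adjusted p = 0.0366) and Per3 (0.92, 0.0123), both lost without 1x sample 2. At 1x against MASLD only Per1 rose (0.51, 0.0493) and none fell (1.49% and 1.62% of all genes). That call was lost without any one library of these groups.

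Of the 4 clock genes listed as opposite in daily phase to Dbp, Npas2 was not tested, with at most 14 counts per library. Clock, the partner of BMAL1, rose by 0.50 on the diet (adjusted p = 0.0288). Against MASLD, it fell by 0.80 at 0.1x (SE 0.16, adjusted p = 0.0112). Its diet call was lost without any one of SD samples 4 and 5 or MASLD samples 3 and 4 (0.0525 to 0.116) and once the GC and length trend was removed (0.0741). The call at 0.1x held with each library left out. Arntl had 21 to 81 counts per library and Nr1d2 differed little, and neither differed among the 4 groups (adjusted p = 0.309 and 0.891).

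Between the doses, the period genes stood on the other side from Dbp, and Nr1d1 on the same side. Of the 6 clock genes grouped with Dbp, 3 were higher at 1x and 0 lower, where 7.13% of all genes were higher and 5.86% lower. At an unadjusted p under 0.05, 4 were higher and 1 lower, and DESeq2 called 3 higher and 0 lower. Per1, Per2 and Per3 were higher at 1x than at 0.1x by 0.84, 0.89 and 0.96 on the log2 scale (adjusted p = 0.00417, 0.00630 and 0.0192), while Dbp was lower by 0.76. The calls of Per1 and Per2 held with each library left out, and that of Per3 was lost without any one of 0.1x samples 1 and 4 or 1x sample 2 (0.0528 to 0.100). With the GC and length trend removed, Per2 and Per3 did not pass (0.0546 and 0.172). Nr1d1 did not pass the main test between the doses. With no filter it lay at −0.97 (adjusted p = 1.59e-08), and it also passed in the fit of only these groups (0.0351). Cry1, of the opposite phase, was higher at 1x than at 0.1x by 0.80 (adjusted p = 0.0473). That was lost without any one of 0.1x samples 1 and 4 or 1x samples 2 and 5 (0.0836 to 0.178), with the GC and length trend removed (0.0852) and with upper-quartile scaling (0.0568).

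Nr1d1 stood at 30.5, 29.3 and 31.4 CPM at 1x, below all 9 other samples. It fell against SD by 1.79 (SE 0.36, adjusted p = 0.00293, and −1.18 without SD sample 3), and lay at −0.79 ± 0.35 against MASLD (adjusted p = 0.260). Nfil3, whose window held a match to the ROR core, rose at 1x against MASLD, and Arntl, whose window held 1 as well, lay at 0.06 ± 0.38.

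**Figure D4:**
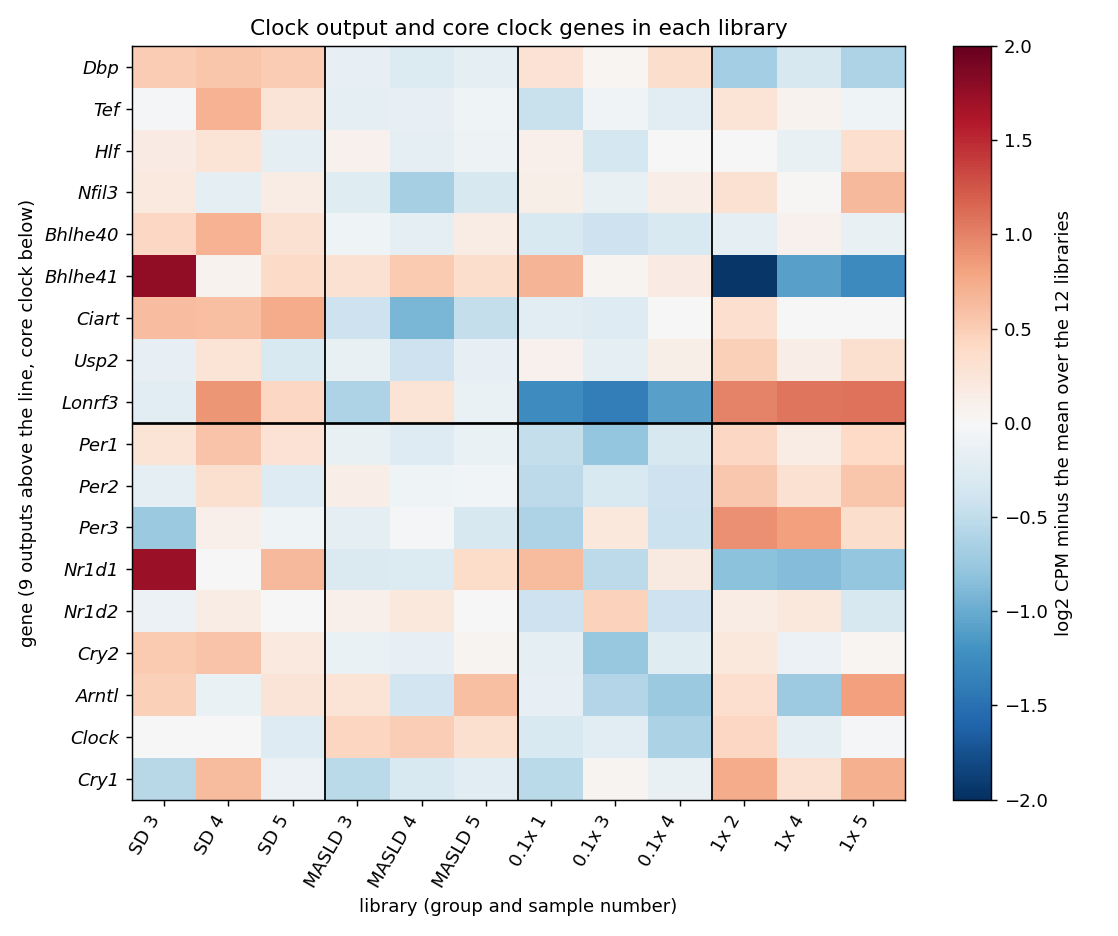
Log2 CPM minus the mean over the 12 libraries (colour, from −2 to 2) for the 9 genes (above the line) and 9 core clock genes (below it) in each library (x axis, group and sample number). SD sample 3 stands out for Bhlhe41 and Nr1d1, and at 1x Bhlhe41, Nr1d1 and Dbp are low where Lonrf3, Per2, Per3 and Cry1 are high. Per1 is high both at 1x and in SD.

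The last list held 12 genes reported downstream of the PAR bZIP factors in liver, all tested. On the diet 5 rose (Ppara, Acot1, Acot2, Acot4 and Cyp2a4) and 1 fell (Nr1i3), where 15.6% of all genes rose and 13.9% fell. Ppara, the fatty acid receptor, rose by 0.82 on the log2 scale (adjusted p = 0.00857), and Acot1 and Acot2, thioesterases of fatty acyl-CoA, rose by 1.32 and 2.82 (adjusted p = 0.000278 and 3.80e-06). Cyp2a4, a steroid hydroxylase, stood at 0.409 to 3.40 CPM in SD and 157 to 183 in MASLD. Cyp2a4 and the Acot genes have near-identical relatives, so their values are uncertain, since shared reads may have gone to either. The calls of Nr1i3, the receptor CAR, were lost without any one of SD samples 4 and 5 or MASLD samples 4 and 5 (0.0599 to 0.103), and those of Acot4 without any one of SD sample 3 or MASLD samples 3, 4 and 5 (0.0670 to 0.109).

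At 0.1x against MASLD, none of the 12 rose (0 at an unadjusted p under 0.05 and 0 with DESeq2) and 2 fell. Of all genes, 6.08% rose there and 7.09% fell. Ppara fell by 1.03 (SE 0.21, adjusted p = 0.0116). Cyp2b10, a cytochrome P450 of drug metabolism, fell by 2.61 (SE 0.63, adjusted p = 0.0187), and that call was lost without MASLD sample 5 or 0.1x sample 1 (0.0529 to 0.0838). At 1x against MASLD, 2 rose and none fell, where 1.49% of all genes rose and 1.62% fell. Those that rose were Por, the electron donor of the P450 enzymes, by 0.81 (adjusted p = 0.0389) and Cyp7a1 by 1.32 (adjusted p = 0.0476). Cyp7a1 catalyses the first and rate-limiting step from cholesterol to bile acids. At an unadjusted p under 0.05, 6 of the 12 were higher at 1x and 0 lower, and DESeq2 called 3 higher and 0 lower. Both calls were lost without several single libraries, for Por without any one of MASLD samples 3 and 4 or 1x samples 2, 4 and 5 (0.0766 to 0.210), and for Cyp7a1 without any one of MASLD samples 3, 4 and 5 or 1x samples 2 and 4 (0.0659 to 0.206). The Cyp7a1 call was also lost with DESeq2 (0.0510), with upper-quartile factors (0.0525) and with a mean of at least 1 CPM (0.0528). Between the doses 4 of the 12 were higher at 1x (Por, Ppara, Cyp2b10 and Acot4) and 0 lower, where 7.13% of all genes were higher and 5.86% lower. Of these calls only that of Por held with each library left out. The part of Dbp in the levels of these genes was not tested.

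The genes whose levels ran most like 3 of the 9 were ranked by Pearson's r of log2 CPM over the 12 libraries, among 12452 tested genes without predicted genes and pseudogenes. These libraries fall into 4 groups, so r follows mainly the group differences and is a description with no test. For Dbp the closest were Bcl7c (r = 0.967), Acat3, Srsf9, Gas1 and Ubxn1 (0.946). For Nfil3 they were Psmb8 (0.886), Tomm40, Apol9a, Irf7 and Lrrc29 (0.857), and for Bhlhe40 they were Nt5dc3 (0.926), Stag2, Sdc1, C1s1 and Irf2bpl (0.918).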

How the data were processed

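RNA-seq of liver was analysed in 12 libraries, 3 per group, grouped by the diet and treatment in the labels. Column-purified total RNA was made into stranded, poly(A)-selected libraries, per the labels' protocols, and reads were aligned with STAR 2.7.3a to mm10, per the submitters' processing notes. How reads were counted (tool, strand setting, annotation) is not given in the sources used here. Raw counts per gene are used the authors deposited them, and 0 columns of that table lay outside the samples. In 1 column the library name and the title give different numbers, and the title (1x sample 5) was followed. The extraction protocol and the design text disagree on the sequencing instrument.

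Symbols, positions and lengths came from GENCODE vM21, which matched 55230 of 55471 IDs, and promoter windows from RefSeq. Genes were filtered with filterByExpr, libraries were scaled by TMM, and all 12 entered 1 edgeR 4.0.16 quasi-likelihood fit (R 4.3.3). Each comparison was a two-sided F test, adjusted by Benjamini-Hochberg over 13866 genes, with calls at an adjusted p under 0.05. The SE was taken as the size of the log2 fold change over the root of F. The fit was tested on simulated data with known changes. The members, gene lists and tests were chosen with earlier results of these data known. Genes named are the 9, the genes of the clock and PAR bZIP lists, and the 5 genes most like Dbp, Nfil3 and Bhlhe40. Sphk2 and C920021L13Rik are named because they overlap Dbp and Ciart. Alternatives were RLE and upper-quartile factors, DESeq2 1.42.0, no filter, a mean of at least 1 CPM, fits restricted to the compared groups, a block by sample number, removal of each library's trend with transcript length and GC content, and leaving out each library. Scaling by library size alone was added after seeing the data. One gene of the clock lists is not reported here.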

Additional observations from a re-analysis of the deposited data

How the results depend on the processing

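Over the single-gene results, 492 of 558 values under other settings and 359 of 432 with 1 library left out kept their direction and their side of the threshold. The count of the 9 genes called on the diet was 2 when scaled by library size alone. At 0.1x against MASLD it was 0 with the GC and length trend removed and 1 in the fit of only these groups. At 1x against MASLD it was 5 with no filter, with that trend removed, in the fit of only these groups and with DESeq2. Over all genes, the count at 1x against MASLD was 1131 with no filter, 1013 in the fit of only these groups and 825 with DESeq2. At 0.1x against MASLD it was 488 with the trend removed. Between the doses it was 666 with the trend removed and 744 in the fit of only these groups, and for 0.1x against SD it was 1660 in that fit. For 1x against SD it was 4634 when scaled by library size alone.

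Scaling by library size alone moved the share of calls that were higher from 46.2% to 16.3% at 0.1x against MASLD, from 48.0% to 36.5% at 1x against MASLD, from 54.9% to 73.2% between the doses, from 47.6% to 81.0% for 0.1x against SD and from 50.2% to 89.0% for 1x against SD. Upper-quartile factors moved it to 43.2% between the doses, to 53.9% at 0.1x against MASLD and to 54.9% for 0.1x against SD, and RLE factors to 49.6% on the diet (53.0% with TMM), 50.6% at 0.1x against MASLD and 47.3% for 1x against SD, so which direction held more calls depended on the scaling. The median of all genes shifted by −0.135 (log2) at 0.1x against MASLD, 0.225 for 0.1x against SD and 0.305 for 1x against SD.

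Deviations of same-numbered samples from their group means correlated from −0.215 to 0.076, and those of differently numbered samples from −0.176 to 0.216. With 3 samples per group this cannot settle whether the numbers pair the samples, and the number of 1x sample 5 differs between its title and library name. With the replicate block, the counts of the 9 genes and of all genes were 0 and 33 at 0.1x against MASLD, 0 and 53 at 1x against MASLD, and 0 and 0 between the doses. For 1x against SD they were 2 and 1122, for any difference among the groups 5 and 2538, and for 0.1x against SD all genes came to 1379. With so few shared numbers the block leaves little to test with.

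With 1 library left out, the count of the 9 genes ran from 3 to 4 for the diet, 0 to 1 at 0.1x against MASLD, 0 to 2 at 1x against MASLD, 2 to 3 between the doses, 3 to 4 for 0.1x against SD, 3 to 5 for 1x against SD and 5 to 8 for any difference. Over all genes it ran from 2654 to 3850, 382 to 1599, 83 to 396, 210 to 1844, 1790 to 2619, 1699 to 2559 and 4048 to 5572 in the same order.

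No value that changed sign had passed the test. Under library-size scaling the log2 fold change was 0.20 for Hlf and 0.16 for Usp2 on the diet, 0.044 for Hlf and 0.20 for Nfil3 at 0.1x against SD, and 0.071 for Tef and 0.28 for Hlf at 1x against SD. Hlf at 0.1x against MASLD was 0.0049 with RLE factors, 0.018 with upper-quartile factors, 0.21 with the trend removed, 0.017 in the fit of only these groups and 0.0049 with DESeq2. With the trend removed, Tef was 0.14 and Bhlhe41 0.22 at 0.1x against MASLD, and Hlf was −0.054 between the doses. Nfil3 at 0.1x against SD was 0.018 with upper-quartile factors and 0.0024 with a mean of at least 1 CPM. With the replicate block, Tef was 0.0024 at 0.1x against MASLD, Nfil3 0.039 at 0.1x against SD and Hlf 0.023 at 1x against SD. With 1 library left out, Bhlhe41 ran from −0.85 to 0.15 on the diet, −0.92 to 0.087 for 0.1x against SD and −0.29 to 0.054 at 0.1x against MASLD. Nfil3 ran from −0.13 to 0.061 and Usp2 from −0.067 to 0.24 for 0.1x against SD. Hlf ran from −0.17 to 0.079 for 1x against SD, −0.10 to 0.11 at 0.1x against MASLD and −0.0059 to 0.25 at 1x against MASLD. Bhlhe40 ran from −0.12 to 0.064 at 1x against MASLD and Tef from −0.18 to 0.0009 at 0.1x against MASLD. The cause of these changes was not tested.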
